A study of Mus musculus with 6 samples.

Results

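The subject of this section is a set of 9 transcription factor genes that pattern the oral region and the tooth: Barx1, Dlx1, Dlx2, Osr2, Lhx8, Alx4, Msx1, Msx2 and Pitx1. The genes were chosen by symbol, in knowledge of their group means and ratios in these data, so their mutant-to-WT ratios are given as a description and support nothing beyond themselves. The authors' deposited table lists all 9 of them among its 15648 genes, so no member was lost to the authors' filter on low values. RNA was sequenced from the intermolar eminence, the raised dorsal part of the mouse tongue, of C57BL/6 embryos at the embryonic stage E17.5. One group was wild type (WT, 3 libraries) and the other carried the genotype Fst-KO, a mutation of the gene for follistatin, an extracellular binding protein for activins and some bone morphogenetic proteins (BMPs); 3 libraries represent it. The allele, the part of Fst it removes and the number of animals per library are not stated in the labels or the file. Fst itself had a higher deposited mean in the mutant group (69.7 against 33.2 in WT), although the label names a knockout, and directions below are therefore those of the library labels.

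Each gene has 1 mean per group, on a normalised scale that the file does not name. No value per library was analysed here, so no standard deviation, no overlap between groups and no library that stands apart could be assessed, and the depth is unknown. The authors' p-values measure only the spread between the 6 libraries, which may be technical. Over all genes the median ratio of the labelled Fst-KO mean to the WT mean was 1.14 (0.18 on the log2 scale), with 81.0% of genes above 1. Ratios are therefore also given relative to this median. The tissue is labelled tongue epithelium, but markers of muscle and of mesenchyme were abundant too: deposited WT means were 4466 for the perinatal myosin gene Myh8 and 1182 for the collagen gene Col1a1, beside 1538 for the basal keratin gene Krt5.

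Jaw and tooth patterning rests on nested domains of homeobox genes in the neural crest-derived mesenchyme of the first pharyngeal arch. Barx1, Dlx1 and Dlx2 mark the proximal, molar-forming side, while Msx1, Msx2 and Alx4 mark the distal, incisor-forming side. Msx1 and Msx2 are classic responders to BMP signals, Lhx8 acts with its relative Lhx6 in dental and palatal mesenchyme, and the zinc finger factor Osr2 restrains tooth formation on the lingual side of the molar row. Pitx1 is expressed in oral ectoderm and mandibular mesenchyme, besides its well-known role in the hindlimb.

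Promoter sequence was set beside the ratios, as a description of genes with unlike values. The RefSeq promoter table (GRCm38.p6) holds 6 of them: Barx1, Dlx1, Dlx2, Lhx8, Msx1 and Msx2. Each window has 300 bases, with 250 before the start of transcription and 50 after it. Shown 5′ to 3′ on the strand of the gene are the bases that lie upstream of both the RefSeq and the GENCODE start, for a pair with ratios near or above 2 (Barx1 and Lhx8) and a pair with ratios near or below 1 (Dlx2 and Msx1). Capitals mark matches on either strand to GGGCGG (the GC box), GGCGCC (a GC-rich SMAD element), CCAAT (the CCAAT box), TATAAA (the TATA box) or TAATTA (a homeodomain core). Overlapping GC box matches are merged.
Barx1, chr13:48662786-48662997, plus strand: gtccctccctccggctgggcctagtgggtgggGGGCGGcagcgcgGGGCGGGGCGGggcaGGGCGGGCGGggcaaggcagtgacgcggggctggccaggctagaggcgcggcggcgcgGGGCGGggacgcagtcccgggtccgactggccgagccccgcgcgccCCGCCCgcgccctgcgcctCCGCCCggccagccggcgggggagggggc
Lhx8, chr3:154330660-154330810, minus strand: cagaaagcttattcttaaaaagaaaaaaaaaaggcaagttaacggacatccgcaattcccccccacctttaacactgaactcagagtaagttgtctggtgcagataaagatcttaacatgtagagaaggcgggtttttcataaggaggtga
Dlx2, chr2:71546755-71547004, minus strand: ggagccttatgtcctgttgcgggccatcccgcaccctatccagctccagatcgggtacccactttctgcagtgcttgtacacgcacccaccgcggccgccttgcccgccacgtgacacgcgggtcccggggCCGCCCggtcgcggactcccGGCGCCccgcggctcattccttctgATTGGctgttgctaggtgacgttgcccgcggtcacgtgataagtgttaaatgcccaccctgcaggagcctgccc
Msx1, chr5:37824586-37824835, minus strand: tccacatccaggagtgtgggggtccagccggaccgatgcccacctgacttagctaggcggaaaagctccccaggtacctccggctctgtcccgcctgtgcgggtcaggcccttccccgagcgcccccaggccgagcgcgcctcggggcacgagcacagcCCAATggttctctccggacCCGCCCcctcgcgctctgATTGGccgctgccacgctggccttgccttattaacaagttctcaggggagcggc
The windows of Dlx1 and Msx2 lie inside the longer GENCODE gene models and are not printed.

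The 6 windows ranged widely in base composition. Barx1 had a GC content of 84.7% with 50 CpG dinucleotides, above 99.8% of the 32851 windows in GC content, whereas Lhx8 had 47.0% with 4 CpG dinucleotides. The other windows lay between, at 69.3% for Dlx1, 66.3% for Dlx2, 70.0% for Msx1 and 61.0% for Msx2, against a median of 52.7% over all windows. Matches were counted over the whole window of 300 bases, of which only part is printed. The GC box was present in 5 of the 6 (all but Lhx8) and in 35.7% of all windows, and the GC-rich SMAD element in Dlx2 and Barx1 and in 11.9% of all windows. In Barx1 the SMAD element lies outside the printed bases. A CCAAT box was found in Dlx2, Msx1 and Msx2 (37.4% of all windows), TAATTA in Msx2 alone (5.29%), and TATAAA in none of the 6 (13.6%). A match is only a run of letters, and the letter sets were chosen after these data had been seen.

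Of the 9 genes, 5 had a higher mean in the libraries labelled Fst-KO at an unadjusted p under 0.05 in the authors' deposited table: Barx1, Dlx1, Osr2, Lhx8 and Alx4. Their ratios ran from 1.67 to 2.34 and their p-values from 0.00156 to 0.00427. Of all genes in the table, 13.4% were higher at this p. No member was lower at this p, against 2.17% of all genes, and the remaining 4 (Pitx1, Msx1, Dlx2 and Msx2) had ratios from 0.729 to 1.23 and p-values from 0.151 to 0.701. None of the 9 passed the authors' FDR of 0.05, which 0.0959% of all genes passed; the lowest FDR among them was 0.202, for Lhx8, in the authors' deposited table. The median ratio of the 9 was 1.67, beside 1.14 for all genes. In bulk tissue, more cells of a type and more RNA per cell cannot be told apart.

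**Figure D1:**
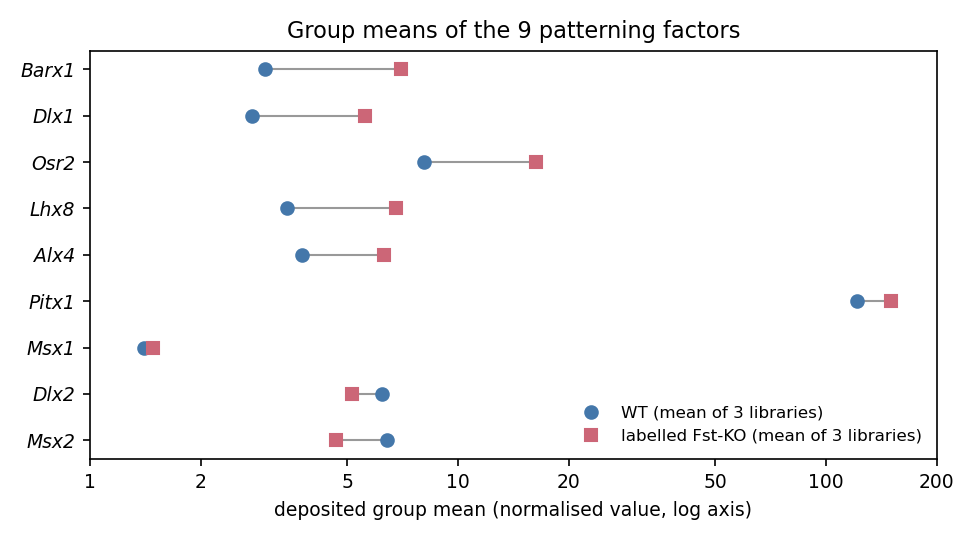
Deposited group means (horizontal log axis, normalised value) of the 9 genes, ordered by ratio, with circles for WT and squares for the libraries labelled Fst-KO; there are no error bars because only group means were used. The first 5 genes lie farther right in the labelled Fst-KO group, with Barx1 at 2.99 in WT and 7.00 there, while Dlx2 and Msx2 lie to the left.

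On the molar side of the homeobox code, the values were divided. Barx1, a homeobox gene of molar-forming and stomach mesenchyme, had means of 2.99 in WT and 7.00 in the labelled Fst-KO group, a ratio of 2.34 (FDR 0.261 in the authors' deposited table). This was the highest ratio of the set and the one at rank 98 from the top among all genes. Dlx1, a distal-less homeobox gene of the proximal first arch, had means of 2.76 and 5.58, a ratio of 2.02 (FDR 0.233 in the authors' deposited table). Dlx2, its neighbour and functional partner, had means of 6.20 in WT and 5.15, a ratio of 0.831 (FDR 0.490 in the authors' deposited table). Per kilobase of exon, the quotient of Dlx1 to Dlx2 was 0.235 in WT and 0.573 in the labelled Fst-KO group. The exon length pools all annotated transcripts, so the size of each quotient depends on it, but their relation to each other does not. No test of this difference was possible on group means.

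On the incisor side, Alx4 had a higher ratio than either Msx gene, a difference with no test. Alx4, a paired-like homeobox gene of distal and frontonasal mesenchyme, had means of 3.76 and 6.29, a ratio of 1.67 (FDR 0.242 in the authors' deposited table). Msx1, which dental mesenchyme needs to pass the bud stage, was close to the bottom of the table, with means of 1.40 and 1.48 and a ratio of 1.06 (FDR 0.804 in the authors' deposited table). Its level lay at percentile 3.78 of all genes, and division by the median ratio of all genes took its own ratio to 0.932, below 1. Msx2, found in dental epithelium and mesenchyme, had means of 6.39 in WT and 4.66, a ratio of 0.729 (FDR 0.512 in the authors' deposited table). Only 2.78% of genes had a ratio below that of Msx2.

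Osr2 and Lhx8, which act in palate and tooth mesenchyme, were both in the higher subset. Osr2 had means of 8.08 in WT and 16.3 in the labelled Fst-KO group, a ratio of 2.01 (FDR 0.210 in the authors' deposited table). Its ratio exceeded 99.4% of those in the same decile of expression levels. Lhx8, a LIM-homeodomain factor, had means of 3.44 and 6.79, a ratio of 1.98 (FDR 0.202 in the authors' deposited table). Divided by the median ratio of all genes, the ratios of Barx1, Dlx1, Osr2, Lhx8 and Alx4 were 2.06, 1.78, 1.77, 1.74 and 1.47.

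Pitx1 was the abundant gene of the set. Its means were 121 in WT and 150 in the labelled Fst-KO group, a ratio of 1.23 (FDR 0.378 in the authors' deposited table), or 1.09 once divided by the median ratio of all genes. It was the 1 member at or above the median level of all genes (16.1). The others lay between percentile 3.78 and 42.2 of all genes by level.

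**Figure D2:**
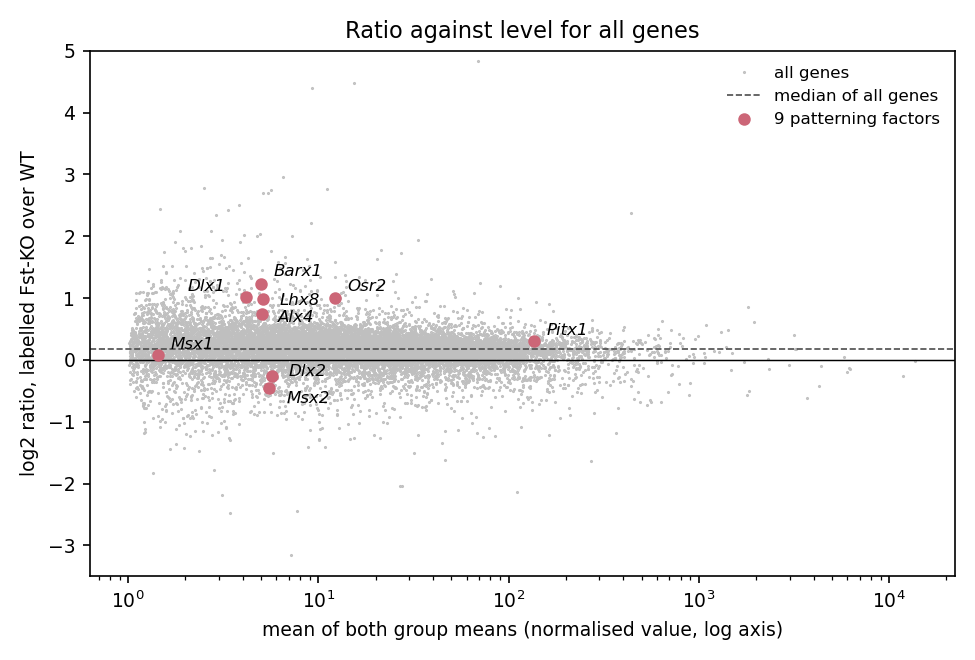
The log2 ratio of the labelled Fst-KO mean to the WT mean (vertical axis) against the mean of both groups (horizontal log axis) for 15648 genes in grey, with the 9 patterning genes in red and the median of all genes (0.18) dashed. Barx1, Dlx1, Osr2, Lhx8 and Alx4 lie between 0.74 and 1.23, Pitx1 lies far to the right near the median line, and Dlx2 and Msx2 lie below 0.

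Levels can be compared between genes only per length, and the deposited means rise with exon length: the median level was 8.68 for the decile of genes shortest in exon sequence and 34.2 for the longest decile. The means were therefore divided by the kilobases of exon in GENCODE M21, pooled over all annotated transcripts of a gene. For Dlx1 this union holds 5396 bases from 6 transcripts, in a gene that runs from 71528113 to 71533981. Where shorter transcripts are the ones expressed, such a value is too low, and which were expressed is unknown. In WT, Pitx1 had 45.7 per kilobase. Osr2 (2.23), Dlx2 (2.17), Barx1 (2.14) and Msx2 (1.95) followed close together, then Lhx8 (1.36), and Alx4 (0.533), Dlx1 (0.511) and Msx1 (0.452) were lowest. In the labelled Fst-KO group the order after Pitx1 (56.4) was Barx1 (5.002), Osr2 (4.49), Lhx8 (2.68), Dlx2 (1.80), Msx2 (1.42), Dlx1 (1.03), Alx4 (0.891) and Msx1 (0.479). Barx1 and Osr2, which lay near Dlx2 and Msx2 in WT, had higher values than both in this group. Which neighbours in either order differ beyond their spread could not be assessed without values per library.

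Of the 11 paralogues listed for these genes, 7 were in the table: Barx2, Osr1, Lhx6, Pitx3, Dlx4, Dlx5 and Dlx3. Of the 7, 2 were higher and 0 lower at the unadjusted threshold, against 13.4% and 2.17% of all genes. Their median ratio was 0.984, below the 1.14 of all genes. Osr1, the close relative of Osr2, had means of 8.52 and 12.8, a ratio of 1.50 (authors' deposited table), and Barx2, which is expressed in oral epithelium, had 37.2 and 59.2, a ratio of 1.59 (authors' deposited table). In the Barx and Osr pairs both members were thus on the higher side. Lhx6, the partner of Lhx8, had 6.28 and 6.93, a quotient of 1.10 without such a p (authors' deposited table). Per kilobase of exon, the quotient of Lhx8 to Lhx6 was 1.04 in WT and 1.86 in the labelled Fst-KO group, a difference with no test.

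Within the Dlx family, Dlx1 was the only gene of the 5 measured with a ratio above 1. Dlx3, a gene of epidermal and dental differentiation, averaged 43.2 and 32.7 (ratio 0.758) in the authors' deposited table. Dlx4 and Dlx5 had ratios of 0.968 and 0.878, and none of Dlx2, Dlx3, Dlx4 and Dlx5 had a p under 0.05 in the authors' deposited table. The Dlx means summed to 61.4 in WT and 52.1 in the labelled Fst-KO group. Dlx3 alone made up 43.2 and 32.7 of these sums, so their fall mostly reflects that gene, although Dlx2, Dlx4 and Dlx5 also had ratios below 1. Pitx3, a relative of Pitx1 known from lens and muscle, had a ratio of 0.984, again without such a p, in the authors' deposited table.

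Besides these families, 23 transcription factor genes of orofacial mesenchyme were measured, with a median ratio of 1.18. At the unadjusted threshold of 0.05, 7 were higher (13.4% of all genes), 0 lower (2.17% of all genes) and 16 neither. The higher ones, with ratios from the authors' deposited table, were Shox2 (2.27), a homeobox gene of the palate, Tfap2b (1.79), Hand2 (1.68), a distal arch factor needed for tongue and jaw, the forkhead genes Foxc2 (1.62), Foxd1 (1.44) and Foxf2 (1.33), and Meis2 (1.30). None passed the FDR of 0.05 in the authors' deposited table. Of 11 factors of oral and dental epithelium, 1 was higher and 0 lower at that p, with a median of 1.12; this was Nkx2-3 at 1.49 in the authors' deposited table.

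A list of 16 genes linked with signalling in the jaw and tooth, which includes a receptor gene and Fst itself, had 13 measured and a median ratio of 1.20. By the same threshold 5 were higher and 1 lower, against 13.4% and 2.17% of all genes, and Fst is among the 5. Shh had a ratio of 2.31, Fst 2.10, Fgf10 1.68, Wnt10b 1.65 and Bmp7 1.49, and Bmp2 was the lower one at 0.714 in the authors' deposited table. Fst was the single gene of this list past the FDR of 0.05. Fgf8, the signal that induces Barx1 and Dlx genes in the early arch, is not listed in the table.

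**Figure D3:**
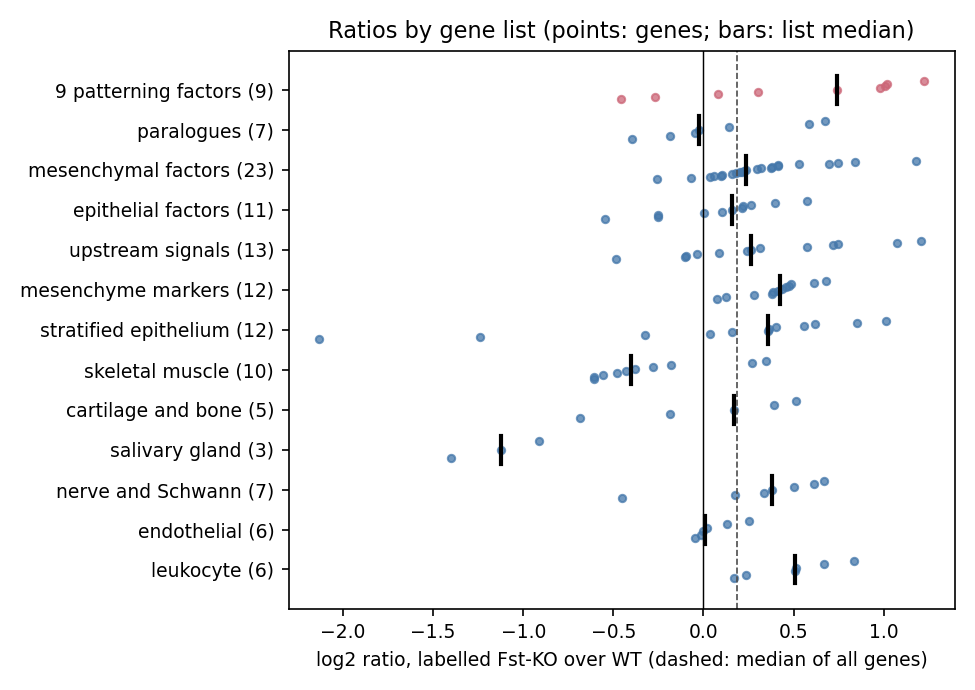
Log2 ratios (horizontal axis) of the labelled Fst-KO mean to the WT mean for the 9 patterning genes (red), related factors and cell type markers (blue), 1 point per gene, with a black bar at each list's median, the number measured in brackets and the median of all genes dashed. The patterning genes spread from -0.46 to 1.23, mesenchyme markers lie above 0 in all 12 cases, and skeletal muscle and salivary markers lie mostly to the left; tooth and forebrain neuron markers (1 and 3 measured) are not drawn.

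Markers of the cell types that such a dissection could hold were set beside these values; none of them passed the FDR of 0.05. All 12 mesenchyme markers had a ratio above 1, as did 81.0% of all genes. At the unadjusted threshold 8 were higher, beside 13.4% of all genes higher and 2.17% lower. The mesenchyme means summed to 4949 in WT and 6656 in the labelled Fst-KO group, a ratio of 1.34. Divided by that ratio, Barx1 stood at 1.74, Dlx1 at 1.50, Osr2 at 1.496, Lhx8 at 1.47, Alx4 at 1.24, Pitx1 at 0.918, Msx1 at 0.787, Dlx2 at 0.618 and Msx2 at 0.542. The mesenchyme sum rests on abundant collagen genes such as Col1a1 (WT mean 1182), Col3a1 (1101) and Col1a2 (859). The ratios of the single markers ran from 1.05 to 1.60, so the divided values depend on which markers are used. Stratified epithelium markers had a summed ratio of 1.39 (12 measured; 3 higher, 1 lower), skeletal muscle 0.732 (10; 0 higher, 3 lower), nerve and Schwann cells 1.12 (7; 2 higher, 0 lower), leukocytes 1.46 (6; 3 higher, 0 lower) and endothelium 0.999 (6; 0 and 0). Salivary markers had 0.416 (3 of 10 measured; 1 lower) and cartilage and bone 1.09 (5 of 9; 1 lower). The epithelial sum rests on abundant genes such as Krt5 (ratio 1.53), and the list was split. Of its 12 markers 9 had a ratio above 1, while the lower one, the keratin gene Krt76, had 0.228. The part of these marker shifts in the members' ratios was not tested.

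Defining markers of tooth cells and of forebrain neurons, other sites of these factors, were largely not in the table. Of 9 ameloblast and odontoblast markers 8 were not listed, among them Amelx, Ambn, Enam and Dspp, and Dmp1 had means of 2.05 in WT and 1.51 in the authors' deposited table. Of 9 markers of GABA neurons of the forebrain, which use Dlx1 and Dlx2, 6 were not listed, among them Gad1, Gad2 and Slc32a1; the 3 measured had a median ratio of 0.992, and of these Lhx6 and Dlx5 are also counted above. A gene that is not listed may have been low in both groups or near 0 in 1 of them. Whether tooth cells express these markers as early as E17.5 was not examined. The presence of tooth tissue in the dissection therefore could not be assessed from them.

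In the genome (GRCm38, the assembly of mm10), 3 of the 9 genes lie on chromosome 13, which also holds Fst, and 3 on chromosome 2. Barx1 lies at 48662998 to 48666507, Msx2 at 53466884 to 53473074 and Pitx1 at 55825051 to 55836192 on chromosome 13, at distances of 65.8, 61.0 and 58.6 Mb from Fst. Their ratios were 2.34, 0.729 and 1.23, of which only that of Barx1 had an unadjusted p under 0.05 in the authors' deposited table. An effect of the shared chromosome was not tested. Dlx1 (71528113 to 71533981, plus strand) and Dlx2 (71543408 to 71546754, minus strand) face each other on chromosome 2 with 9.43 kb between them, and Alx4 lies on the same chromosome at 93642384 to 93681339. Lhx8 is on chromosome 3 (154306294 to 154330659), Msx1 on chromosome 5 (37820485 to 37824583) and Osr2 on chromosome 15 (35296098 to 35303305).

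The nearest measured protein-coding genes on each side were chosen by position, whereas the members were chosen with their ratios known, so the contrast between them is a description. The 16 such neighbours that are not members had ratios from 0.828 to 1.47 with a median of 1.19. Of these, 4 were higher and 1 lower by the unadjusted threshold, against 13.4% and 2.17% of all genes. Barx1 (2.34) sits between Ptpdc1 at 1.24 and Phf2 at 1.14 in the authors' deposited table. Osr2 (2.01) sits between Stk3 at 1.199 and Vps13b at 1.21, and Alx4 (1.67) between Cd82 at 0.828 and Accs at 1.18 in the authors' deposited table. Lhx8 (1.98) had the neighbour with the highest ratio, Slc44a5 at 1.47, at a distance of 34.6 kb in GENCODE M21. Dlx1 (2.02) sits between Metap1d at 1.03 and Dlx2 at 0.831 in the authors' deposited table. Beyond Dlx2 (0.831) lies Itga6 at 1.24. Msx2 (0.729) sits between Sptlc1 at 1.16 and Sfxn1 at 1.28, and Pitx1 (1.23) between Pcbd2 at 1.13 and H2afy at 1.23 in the authors' deposited table. Msx1 (1.06) was nearer to the median of all genes than its neighbour Stk32b at 1.37, and Stx18 on its other side had 1.13 in the authors' deposited table.

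**Figure D4:**
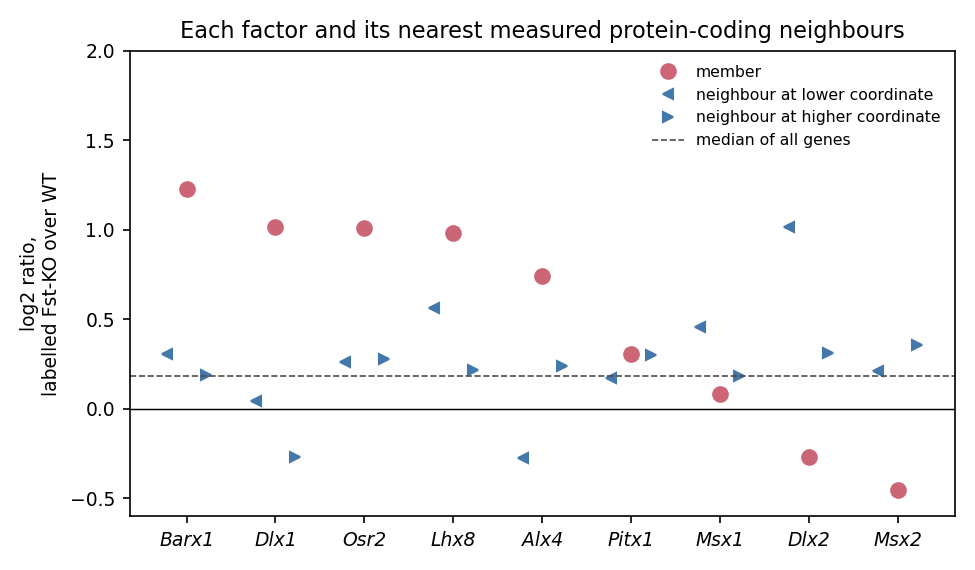
Log2 ratio (vertical axis) of the labelled Fst-KO mean to the WT mean for each of the 9 genes (red circles) and its nearest measured protein-coding neighbour at lower and higher coordinates (blue triangles), with the median of all genes dashed. Barx1, Dlx1, Osr2, Lhx8 and Alx4 lie above both of their neighbours, and so does Pitx1, though only narrowly above H2afy. Msx1, Dlx2 and Msx2 lie below both of theirs. Dlx1 and Dlx2 are each other's neighbour.

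For most members little sequence was shared with other genes. No exon base of 7 members is shared with another annotated gene at the same place. Dlx1 shares 6.21% of its exon bases with the opposite-strand gene Dlx1as, and Pitx1 shares 10.3% with the genes Gm47071 (opposite strand) and Gm28760 (same strand). Reads from the opposite-strand stretches cannot be assigned without strand, nor those shared with Gm28760 even with it, and neither the labels nor the file say whether the libraries kept strand. Of the 50-base words in the annotated transcripts, 5 members shared none with any other gene on either strand. Pitx1 shared 6.79%, Dlx1 5.19%, Msx2 0.465% and Alx4 0.156%. Dlx1 and Dlx2, despite their kinship, shared no such word with each other.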

How the data were processed

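RNA from 6 libraries was analysed through 1 file, a comparison table that the authors deposited. BWA 0.7.12, Partek and the build mm10 are named in the submitters' processing notes, and the series' design text names GSA, Partek's gene-level test, for the differences; the sources used here do not give annotation, counting, strand or normalisation. The deposited columns used were the p-value and FDR, the ratio of mutant over WT, and the group means, which are least-squares means per the file headers and hold the authors' normalised signal. The FDR equalled a Benjamini-Hochberg adjustment and the ratio the quotient of the means for all 15648 genes (relative tolerance 1e-06). The deposited column of totals equalled 3 times the summed means (tolerance 1e-05) and is not a raw count. A deposited score, the signed fold change, restates the ratio and was not used. "Mutant" was read as Fst-KO, the one mutant group.

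The tests written for values per library could not be run, so calls are the deposited FDR under 0.05 over all genes. An exact permutation test of 1 gene, 3 libraries against 3, cannot give a p below 0.1. Members, the 15 gene lists and the rule for naming (all members and measured paralogues; of other lists those with an unadjusted p under 0.05 or the 2 most abundant) were chosen with earlier results of these data known; cell type markers are given mostly as counts in place of names. Further genes were named by position, and 1 gene is not reported here. Positions, exon lengths and shared 50-base words come from GENCODE M21 (GRCm38; 15082 symbols matched), promoters from RefSeq (GRCm38.p6). Python 3.11.15 and pandas 2.3.3 were used, and the adjustment was tested on simulated data.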

Additional observations from a re-analysis of the deposited data

How the results depend on the processing

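The median log2 ratio of the 9 genes was 0.74 as deposited, 0.56 relative to the median of all genes, 0.61 with a pseudocount of 1 on both means, 0.28 with a pseudocount of 10, 0.52 as a mean over the genes, and 0.30 over genes at or above the median level, which leaves Pitx1 alone. It kept its sign in each, although a pseudocount could not have changed it. Of the single genes, Msx1 changed sign, from 0.08 to -0.10, once the median log2 ratio of all genes was subtracted. The other 8 kept theirs on that scale. A pseudocount added to both means cannot change the sign of a ratio, so the signs under either pseudocount carry no information. A pseudocount of 10 exceeds the WT means of 8 of the 9 genes and shrinks their ratios by construction. Of the 9 genes, 0 passed the authors' FDR at 0.05 and 0 at 0.1, while 5 were higher at an unadjusted p under 0.05, as were 13.4% of all genes. The adjustment over genes at or above the median level held 1 member, Pitx1, which did not pass, and says nothing of the other 8. Among all genes, 15 passed at 0.05, 28 at 0.1, and 4 when adjusted over genes at or above the median level. Leaving out a replicate was not run, since no value per library was analysed. No paired analysis was possible because the columns hold group means and carry no replicate numbers. Depth is unknown; most of the 9 genes lie low in the table.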
